A study of Mus musculus with 12 samples.

Results

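Pax1, Pax9, Uncx, Foxc1, Foxc2, Tbx18 and Sox9 are transcription factors of the sclerotome and of the paraxial mesoderm it comes from, and their RNA was followed here in Myf5-lineage cells of the mouse head and trunk. They were chosen by name, as 7 of the 12393 genes that the platform annotation pairs with a probe set of their own, and 10 probe sets of the array stand for them. The study set head muscle progenitors against trunk muscle progenitors while both regions begin to make muscle. ICR embryos of the genotype Myf5Cre;RosaYFP were dissected into head and trunk on embryonic day 9.5, 10.5 or 11.5 (written E9.5, E10.5, E11.5), the tissue was dispersed, and YFP+ cells were collected by flow sorting. Each of the 6 groups was measured on 2 arrays, 12 in all, and strain, genotype and sort were the same in every group, so that no unlabelled cells and no animals without the Cre were used as controls here.

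The label follows descent. Cre driven by Myf5 switches on the yellow fluorescent protein in a cell that expresses this muscle determination gene, and all descendants of that cell keep it whatever they become. The sort therefore fixes the history of a cell and not its present type. No label tells if replicate arrays came from separate animals, litters or pools, so a p-value here reflects only how far these samples spread, which may be technical.

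Somites are blocks of paraxial mesoderm that bud off along the trunk. The ventral part of a somite loosens into sclerotome, the source of vertebrae and ribs, under Sonic hedgehog from the notochord and floor plate, while the dorsal part, the dermomyotome, gives muscle and dermis. Pax1 and Pax9 are the paired-box genes that mark and drive sclerotome. Uncx is a homeobox gene of the posterior part of each somite and Tbx18 a T-box gene of the anterior part, and both help to hold that division. Foxc1 and Foxc2 are closely related forkhead genes of the presomitic mesoderm, somite and sclerotome, and also of head mesenchyme and vessels. Sox9 switches on the cartilage programme and also acts in neural crest and other tissues. The mesoderm of the head is not cut into somites, and much of its skeleton comes from neural crest.

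The sequence upstream of 2 members whose signal was higher in trunk is shown here, because it lets their starts be compared base by base. Both come from RefSeq on the GRCm38.p6 build, plus strand, written 5′ to 3′. Uncx lies at chr5:139543648-139543864 in 217 bases that end where the annotated gene begins, and Foxc1 at chr13:31806396-31806645 in the 250 bases before its start. Capitals mark matches to CCAAT or, on the other strand, its complement ATTGG, the CCAAT box of many promoters, and to TAATTA, a core bound by homeodomain proteins that reads alike on both strands.
Uncx: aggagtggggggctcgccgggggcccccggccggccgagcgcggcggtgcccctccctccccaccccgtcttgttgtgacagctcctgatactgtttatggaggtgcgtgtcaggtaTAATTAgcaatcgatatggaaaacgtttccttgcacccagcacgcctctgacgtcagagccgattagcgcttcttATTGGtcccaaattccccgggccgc
Foxc1: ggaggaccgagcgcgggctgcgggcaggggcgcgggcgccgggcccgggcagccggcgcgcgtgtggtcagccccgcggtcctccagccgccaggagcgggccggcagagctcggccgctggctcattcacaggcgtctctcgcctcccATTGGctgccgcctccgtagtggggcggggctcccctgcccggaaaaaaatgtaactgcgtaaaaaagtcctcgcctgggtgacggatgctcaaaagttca

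Windows of 250 bases were read for Pax1, Pax9, Uncx, Foxc1 and Tbx18, 5 of the 7 members, and the Foxc2 and Sox9 windows were not analysed here. Those of Pax1 and Pax9 lie wholly inside the annotated span of their gene (250 of 250 bases), so they may not be upstream of every start of that gene. A CCAAT box was present in 4 of these 5 windows, those of Pax1, Uncx, Foxc1 and Tbx18, and in 33.8% of all 32851 promoter windows of that length. TAATTA occurred in the Uncx window alone among the 5, at 2 places, one of which is in the stretch printed above, and in 4.84% of all windows. Neither GACCACCCA or its complement on the other strand, the site of the hedgehog-responsive Gli factors, nor TATAAA, the TATA box, on either strand was found in any of the 5, against 0.225% and 12.4% of all windows. No motif is contained in another, and a match is a description of the letters only. GC content ran from 43.6% in the Pax9 window to 70.8% in the Foxc1 window, with a median of 52.4% over all windows.

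The 12 arrays were alike in overall brightness, with medians of 108.6 to 110.4 intensity units, and the 2 arrays of a group correlated with Pearson r of 0.948 to 0.965 across genes, which are not independent replicates. A signal above its own array's median is called above the median below, and folds that rest on arrays under it are given as "at least". Myf5 itself was above the median on all 12 arrays, Myod1 on 8 and Myog on 10. Xist, the RNA of the inactive X chromosome, was low on 2 arrays. They were replicate 1 of the E10.5 head group (7.35 in log2) and of the E10.5 trunk group (6.37), against 11.89 to 13.10 elsewhere. The E10.5 head minus trunk values of the members are therefore also given without those 2 arrays. Other markers moved with region: of the endothelial list 10 of 10 genes tested were higher in head, with a summed signal of 2193 to 6152 in head and 721 to 1627 in trunk, and of the epithelial list 9 of 11 were higher in head and 0 lower, with 1993 to 9239 against 996 to 3207. Among all genes tested 6.85% were called higher in head and 3.61% lower over the mean of the stages. Of the cranial neural crest list 3 of 12 were higher in head and 1 lower, with 3737 to 6267 against 3832 to 5788. Of the neural list 5 of 10 were higher and 3 lower in head, and of the myogenic list 0 of 7 were higher and 2 lower, Myog and Pax3. The part of these cells in the results below was not tested. In sorted bulk samples fewer cells of a type and less RNA per cell cannot be told apart.

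All 7 members had at least 2 arrays above the median and entered the test, Uncx through trunk arrays alone and Tbx18 through 3 head arrays alone, so counts over the members describe them and support nothing. Over the mean of the 3 stages 5 of 7 members differed between regions by limma's test with Benjamini-Hochberg adjustment over 7721 genes, and all 5 were lower in head: Pax1, Uncx, Foxc1, Foxc2 and Sox9. Among all genes tested 10.5% were called in that comparison, 3.61% as lower in head. The median log2 difference, head minus trunk, was -1.16 over the 7 members and -0.00092 over all genes tested. Pax9 and Tbx18 were not called. The plot of signals by stage shows every array behind these statements.

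**Figure D1:**
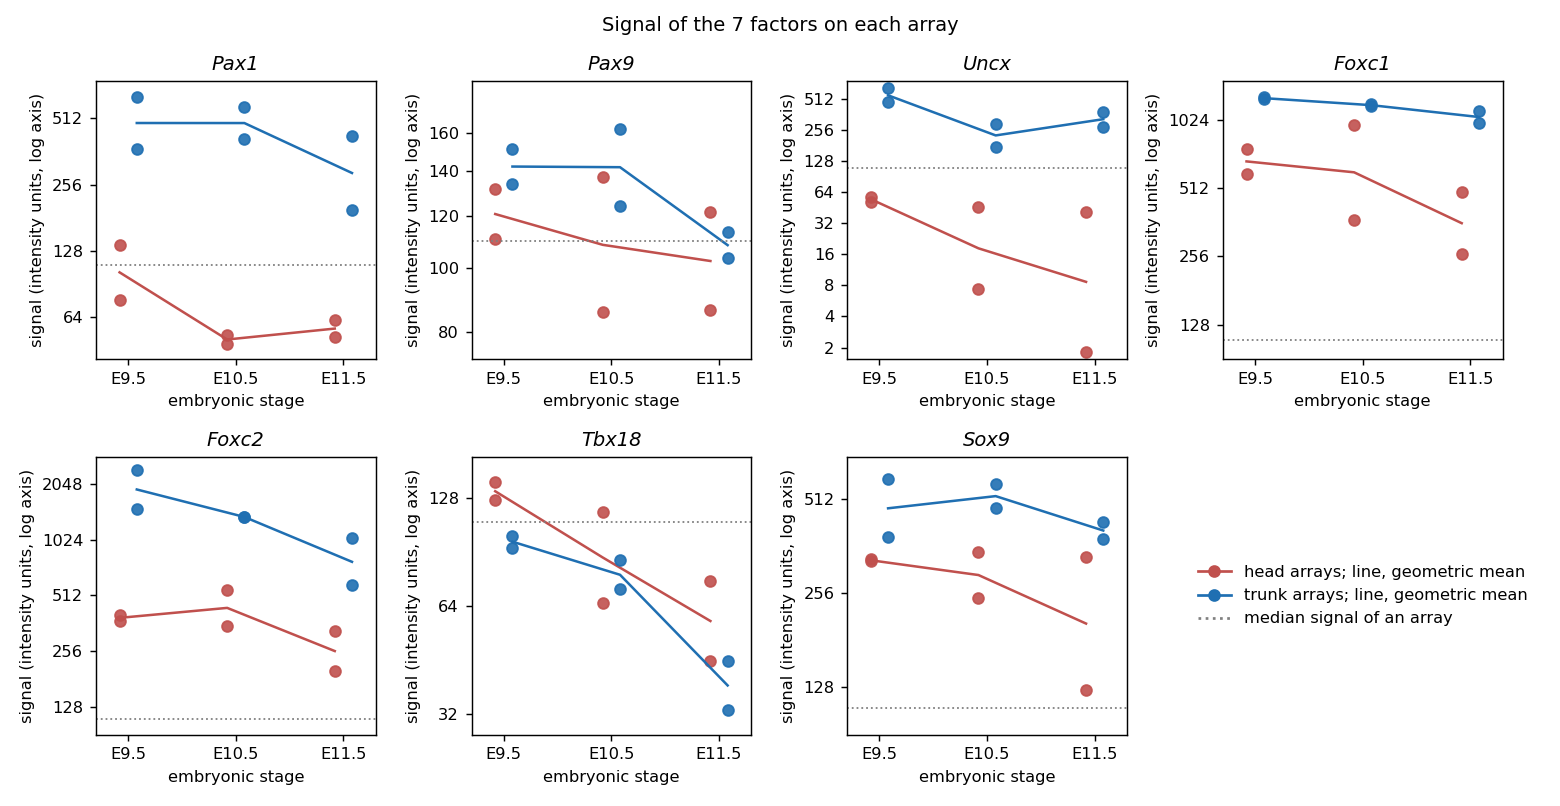
Signal of each of the 7 genes (intensity units, log axis) against embryonic stage, for the probe set tested; points are single arrays, lines join the geometric means of 2 arrays, and the dotted line is the median signal of an array. For Pax1, Uncx, Foxc1, Foxc2 and Sox9 the 6 trunk arrays lie above the 6 head arrays; for Pax9 and Tbx18 the regions overlap.

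Pax1 was on in every trunk group and near or below the array median in head. In trunk its signal (probe set 1449359_at) was 371 and 642 at E9.5, 414 and 575 at E10.5, and 425 and 196 at E11.5. In head it was 136 and 76.4 at E9.5, 48.4 and 52.7 at E10.5, and 61.7 and 52.0 at E11.5. The 2 regions did not overlap, and 1 of 6 head arrays, from E9.5, was above the median, against 6 of 6 in trunk. Head minus trunk was -2.63 (SE 0.24, limma adjusted p = 2.48e-05) on the log2 scale over the mean of the stages, which is at least 3.60-fold higher in trunk. By stage the difference was -2.26 (adjusted p = 0.00594) at E9.5, -3.27 (0.00136) at E10.5 and -2.35 (0.0119) at E11.5. Pax1 was thus called lower in head at all 3 stages tested. Both head arrays of E11.5 were under the median, and with signals raised to the array median the E11.5 call ended (-1.40, limma adjusted p = 0.0922). The calls at single stages rest on few arrays: at E9.5 leaving out head replicate 2 or trunk replicate 2 ended the call (adjusted p of 0.0631 and 0.0661). At E11.5 leaving out head replicate 1, head replicate 2 or trunk replicate 1 did so (0.0533, 0.0850 and 0.126), and without the Xist-low arrays the E10.5 value was -3.45 with an adjusted p of 0.0639.

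Pax9, the paralog that overlaps Pax1 in sclerotome and is also a gene of pharyngeal pouch and facial mesenchyme, stayed close to the array median in both regions. Its brighter probe set (1421246_at) read 134 and 152, 163 and 124, and 113 and 103 in trunk at E9.5, E10.5 and E11.5. In head it read 132 and 111, 137 and 85.6, and 86.4 and 122. Head and trunk overlapped, with 4 of 6 head and 5 of 6 trunk arrays above the median. The head minus trunk value was -0.24 with a 95% interval of -0.65 to 0.17 (limma adjusted p = 0.483). That interval leaves out a fitted value as large as that of Pax1 for this probe set. Since the signals lay close to the median, it does not limit the difference in RNA. The other Pax9 probe set (1421247_at) was above the median on 2 head and 2 trunk arrays and spread from 27.5 to 159, with a mean difference of -0.21 when it stood for the gene (adjusted p = 0.766). Thus 1 of these sister genes was called between regions and the other was not, and whether Pax1 and Pax9 differ from each other was not tested.

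Uncx and Tbx18, the genes of the posterior and anterior somite compartments, each rose above the median on arrays of a single region. For Tbx18 the regions overlapped and were not called apart. Uncx (1419633_at) was above the median on 6 of 6 trunk arrays and on 0 of 6 in head. Its trunk signal was 474 and 643 at E9.5, 175 and 292 at E10.5, and 275 and 382 at E11.5. Its head signal was 51.5 and 57.8, 7.33 and 45.5, and 1.82 and 41.1. No head array reached the lowest trunk array. Head minus trunk over the mean of the stages was -4.06 (SE 0.65, adjusted p = 0.00167), and trunk was at least 3.12-fold higher. That log2 value takes in head signals as low as 1.82, which lie far under the array median, so the bound is the measured size.

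At single stages Uncx was called at E11.5 (-5.23, SE 1.13, adjusted p = 0.0376, at least 2.95-fold) and missed the threshold at E9.5 (-3.34, 0.132) and E10.5 (-3.63, 0.0865). Among the head arrays replicate 1 of E10.5 and of E11.5 carried the lowest readings (7.33 and 1.82). With every signal below its array's median raised to it, the E9.5 difference was -2.33 with a limma adjusted p of 0.000618. That floor sets every head array to its median and so removes nearly all spread among them, which lowers the p-value by construction. Adding 32 units before the log gave -2.75 (0.00131) at E9.5 and -2.23 (0.00831) at E10.5. Leaving out either head array of E11.5 also brought E9.5 and E10.5 under the threshold (0.0108 to 0.0167), as did leaving out head replicate 2 for E10.5 (-4.95, 0.0495), while without head replicate 1 E10.5 had -2.31 (0.466). The E11.5 call was lost when any of 9 of the 12 arrays was left out, with adjusted p of 0.0502 to 0.199 and values from -5.46 to -2.98; only the loss of a head E10.5 array or of head replicate 2 at E11.5 left it in place.

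Tbx18 (1449871_at) was above the median on 3 of 6 head arrays and on no trunk array. In head it was 127 and 142 at E9.5, 117 and 65.2 at E10.5, and 44.9 and 75.4 at E11.5. In trunk it was 93.2 and 101, 86.0 and 71.3, and 32.9 and 44.9. The highest readings were the 2 head arrays of E9.5, but the regions overlapped. The difference over the mean of the stages was 0.41 with an interval of -0.12 to 0.94 (adjusted p = 0.343). Since no trunk array rose above its median, the trunk level of Tbx18 is known only as a bound, and no fold is given.

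Foxc2 was bright in all 12 arrays and stood clearly higher in trunk. The trunk signal (1416693_at) was 1506 and 2448 at E9.5, 1365 and 1361 at E10.5, and 1042 and 582 at E11.5. The head signal was 373 and 401, 549.9 and 349, and 199 and 329. Even the lowest trunk array, at E11.5, exceeded the highest head array, at E10.5. Trunk was 3.61-fold higher over the mean of the stages (log2 head minus trunk -1.85, SE 0.20, adjusted p = 8.75e-05). At E9.5 trunk was 4.96-fold higher (adjusted p = 0.00181), at E10.5 3.11-fold (0.0245) and at E11.5 3.04-fold (0.0346). The E9.5 call was kept without any single array. The E10.5 call ended without head replicate 2, trunk replicate 1 or trunk replicate 2 of that stage (0.0788, 0.155 and 0.140) and without both Xist-low arrays (-1.96, 0.217). The E11.5 call ended without head replicate 1 or trunk replicate 1 of that stage (0.203 and 0.260) and without either trunk array of E10.5 (0.0628 and 0.0619).

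Foxc1 differed in the same direction by a smaller amount. Its brighter probe set (1419486_at) was steady in trunk, at 1297 and 1274, 1181 and 1212, and 993 and 1132 from E9.5 to E11.5. In head it was 595 and 765 at E9.5, 976 and 373 at E10.5, and 262 and 493 at E11.5. The regions did not overlap, though head replicate 1 at E10.5 (976) came close to the lowest trunk array (993). Trunk was 2.23-fold higher over the mean of the stages (-1.16, SE 0.22, adjusted p = 0.00526). No single stage was called, with -0.93 at E9.5 (0.239), -0.99 at E10.5 (0.150) and -1.56 at E11.5 (0.0669). At E10.5 the value was -1.68 (adjusted p = 0.0410) without head replicate 1 of that stage and -0.29 (0.604) without head replicate 2. The E11.5 value, which does not use E10.5, had an adjusted p of 0.0160 or 0.0158 without one or the other head array of E10.5, since those arrays enter the estimate of the spread.

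Sox9 had the smallest called difference of the 5. The probe set tested (1451538_at) read 385 and 592, 572 and 478, and 432 and 380.3 in trunk at the 3 stages. In head it read 323 and 328, 347 and 246, and 125 and 333. The lowest trunk reading stayed above the highest head reading, by a small margin. Trunk was 1.73-fold higher over the mean of the stages (-0.79, SE 0.22, adjusted p = 0.0388), and the difference was not called at E9.5 (-0.55, 0.555), E10.5 (-0.84, 0.203) or E11.5 (-0.99, 0.310). This call is fragile: it ended when any of 10 of the 12 arrays was left out, with values of -0.88 to -0.56 and adjusted p of 0.0505 to 0.114, and was kept only without head replicate 2 at E11.5 or trunk replicate 1 at E9.5. At E11.5 the value was -1.70 (adjusted p = 0.0360) without head replicate 2 of that stage and -0.28 (0.818) without head replicate 1.

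**Figure D2:**
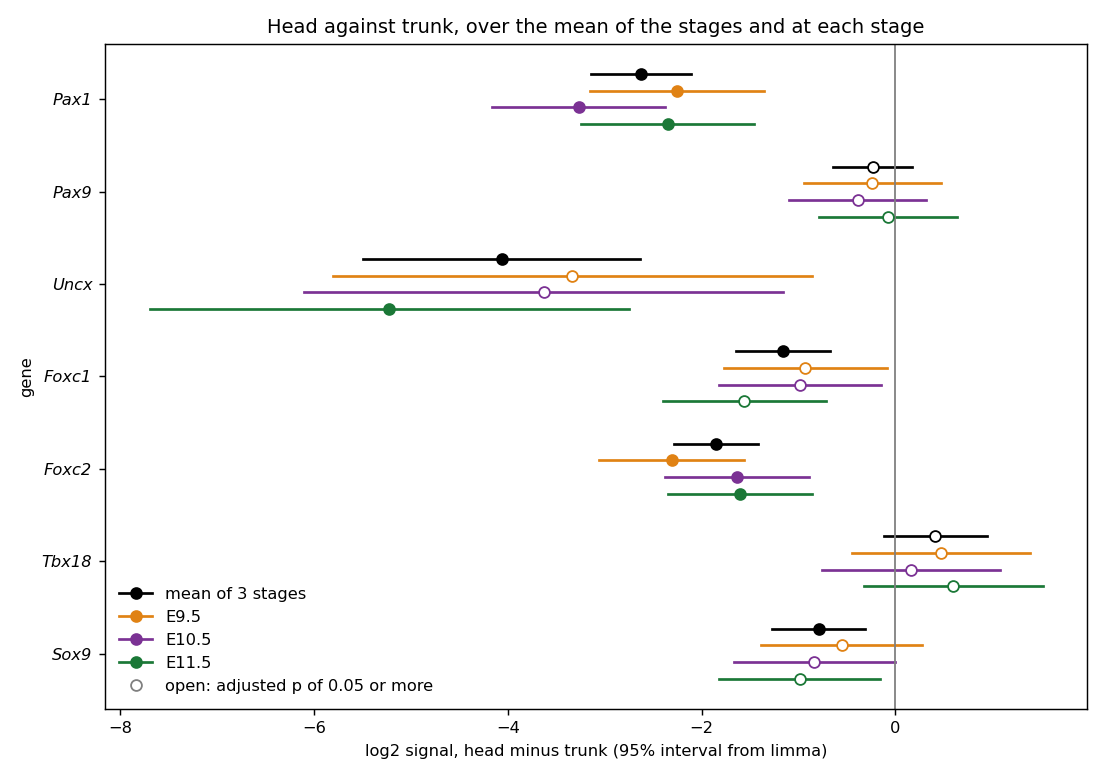
Log2 signal, head minus trunk, for each gene over the mean of 3 stages and at E9.5, E10.5 and E11.5; points are limma estimates, bars their 95% intervals, and filled points have an adjusted p below 0.05. Pax1 and Foxc2 are filled in all 4 comparisons, Uncx over the mean and at E11.5, Foxc1 and Sox9 over the mean alone, and Pax9 and Tbx18 in none.

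Per stage, 2 of 7 members were called at E9.5 (Pax1 and Foxc2), 2 at E10.5 (the same genes) and 3 at E11.5 (with Uncx), all lower in head. The background share was 5.92% at E9.5, 4.52% at E10.5 and 2.07% at E11.5, and the share called as lower in head was 1.24%, 2.07% and 1.36%. At E10.5 the count was 0 without the 2 Xist-low arrays, a setting that also ended the calls of Uncx (0.0590) and Foxc2 (0.0704) at E11.5 and of Sox9 over the mean (0.136), and that leaves 1 array a group at E10.5, each assumed to vary like the other groups. Without the 2 Xist-low arrays the E10.5 values, head minus trunk, were -2.68 for Uncx, -1.70 for Foxc1 and -0.96 for Sox9. They were -0.54 for Pax9 and -0.13 for Tbx18. A call at one stage and none at another does not show that the stages differ. The tests of that difference, the head change minus the trunk change, called 0 of 7 members from E9.5 to E10.5, from E10.5 to E11.5 and from E9.5 to E11.5 by limma, where 0.389%, 0% and 1.48% of all genes were called, and 0 members had an unadjusted p under 0.05 in any of the 3. For Pax1 the interval of that difference from E9.5 to E11.5 was -1.36 to 1.17, and for Foxc2 -0.35 to 1.76, so changes of more than 2-fold between the regions are not shut out by these data.

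Between E9.5 and E11.5 the tested probe set of each member had a lower mean log2 signal in both regions. Uncx in head and Tbx18 in trunk lay under the median throughout, so for them no fall can be read. The other probe sets of Sox9 in trunk and of Pax9 in head had a higher mean at E11.5. Foxc2 in trunk was the 1 called change. Foxc2 there fell by 1.30 on the log2 scale (SE 0.34, adjusted p = 0.0249), 2.47-fold lower at E11.5. Among all genes 13.4% were called in that comparison and 4.71% as lower at E11.5. The 4 trunk arrays of those stages did not overlap, with 1506 and 2448 at E9.5 against 1042 and 582 at E11.5. The call ended without trunk replicate 2 at E9.5 (-0.95, 0.170) or at E11.5 (-0.88, 0.203), and without the intensity trend of the fit (0.0523). Markers of other tissues also moved in trunk over these days: 6 of 11 epithelial genes fell and 0 rose, with a summed signal of 3170 to 3207 at E9.5 and 996 to 1498 at E11.5. Of the neural list 5 of 10 rose and 1 fell (2849 to 3456 against 3991 to 5347), and of the myogenic list 4 of 7 rose and 0 fell (3178 to 5220 against 12256 to 13753). Their part in the Foxc2 result was not tested.

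Tbx18 in trunk came next, with a fitted value of -1.34 (SE 0.42, adjusted p = 0.0575), but all its trunk signals were below the median, and at that floor the value was 0.0038 (0.998). With arrays left out in turn its adjusted p ran from 0.0409 to 0.245. The other 5 members had -0.77 (Uncx) to -0.24 (Sox9) in trunk, with adjusted p of 0.273 to 0.755. In head, limma called 0 of 7 members from E9.5 to E11.5, where 4.78% of all genes were called, and 3 members had an unadjusted p under 0.05. Those were Tbx18 (-1.21, adjusted p = 0.144), Foxc1 (-0.91, 0.235) and Uncx, while Pax9 had -0.24 (0.780). The fitted value of -2.66 for Uncx (0.239) lies between readings that were all below the median in head, so it measures no change. The Uncx and Sox9 values rest on the single arrays of E11.5: without replicate 2 they were -4.90 (0.0114) and -1.38 (0.0460), and without replicate 1 they were -0.41 (0.870) and 0.034 (0.978).

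Steps of 1 day called no member. From E9.5 to E10.5 limma called 0 of 7 in head and 0 of 7 in trunk, where 0.958% and 7.2% of all genes were called, with 1 and 0 members at an unadjusted p under 0.05. From E10.5 to E11.5 it called 0 of 7 in each region, where 0.984% in head and 0.0259% in trunk were called, with 1 and 2 members at an unadjusted p under 0.05. Uncx in trunk read 474 and 643 at E9.5 and 175 and 292 at E10.5, a difference of -1.29 (SE 1.13, adjusted p = 0.558). With signals raised to the array median, which leaves the value as it is, the limma adjusted p was 0.0193. That floor takes nearly all spread out of the head groups, which share the estimate, so the smaller p-value follows from it.

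The order of the 6 groups was set by region for 5 of the members. Pax1, Uncx, Foxc1, Foxc2 and the tested Sox9 probe set had the 3 trunk groups on top and the 3 head groups below. In each of them trunk E9.5 came first, except for Sox9, where trunk E10.5 did, and the top 2 trunk groups overlapped for Pax1 and Sox9. Pax9 had every pair of neighbouring groups overlapping, so no order can be read from it. The group means of Tbx18 ran by stage, with E9.5 first, then E10.5, then E11.5, and head above trunk within each. Neighbouring groups overlapped from trunk E9.5 through head E11.5. All its trunk arrays and both head arrays of E11.5 were below the median, so no order can be read among those groups.

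Foxc1, Sox9 and Pax9 have 2 probe sets each, and for Sox9 they disagreed. The other Sox9 probe set (1424950_at) read 237 and 203 at E9.5, 322 and 300.05 at E10.5, and 384 and 521 at E11.5 in trunk. In head it read 128 and 223, 299 and 307, and 196 and 129. In trunk it climbed while the tested probe set did not: its E11.5 minus E9.5 value was 1.03 (adjusted p = 0.0389) with this probe set standing for the gene and -0.24 (0.755) with the other. At E10.5 it showed head and trunk alike (-0.04, adjusted p = 0.954), where the tested probe set gave -0.84, and at E11.5 it gave -1.49 (0.0249). Over the mean of the stages both were lower in head, with -0.64 (0.0337) and -0.79 (0.0388). The direction of Sox9 over time in trunk therefore depends on the probe set read, and which part of the transcript each one covers was not analysed here.

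The second Foxc1 probe set (1419485_at) gave the same call. Its trunk signals ran from 361 to 825 and its head signals from 129.6 to 476, with overlap, and head minus trunk was -1.02 (adjusted p = 0.00787). For Pax9 the dimmer probe set pointed the other way at E11.5 (1.06, 0.592) than at E10.5 (-1.41, 0.190). These comparisons of probe sets were chosen after the values were seen.

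**Figure D3:**
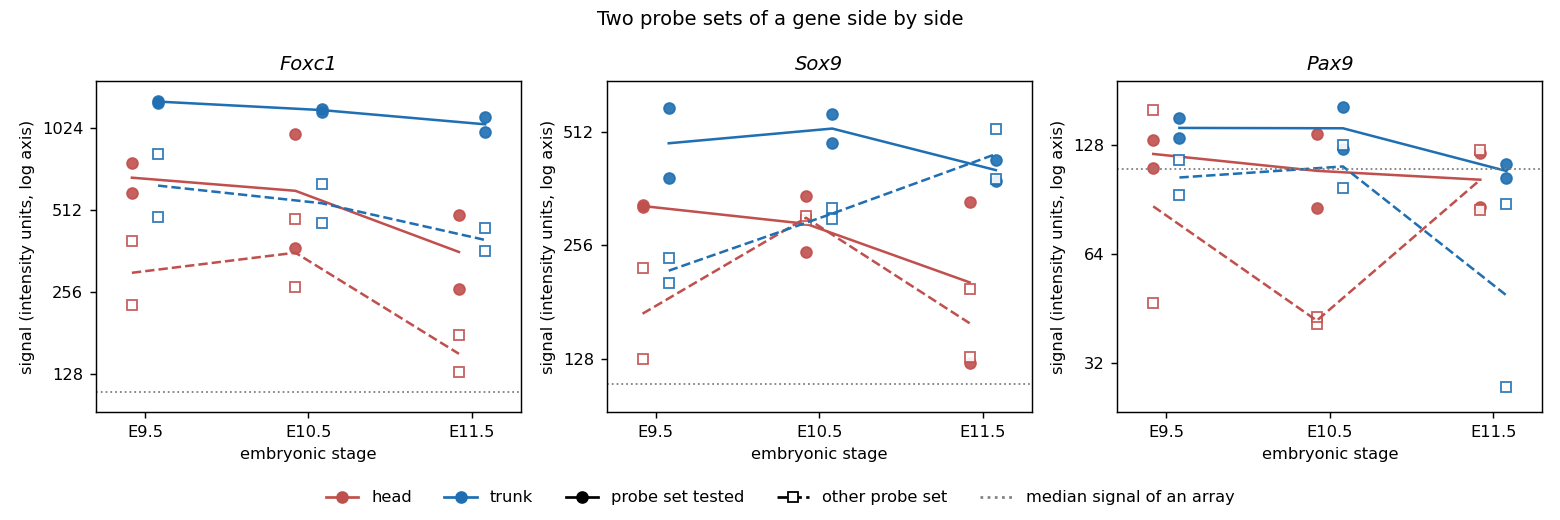
Signal (intensity units, log axis) of both probe sets of Foxc1, Sox9 and Pax9 against embryonic stage; filled circles and solid lines are the probe set tested, open squares and dashed lines the other, points are arrays, lines join geometric means of 2 arrays, and the dotted line is the array median. The Sox9 probe sets part in trunk, where one goes from 237 and 203 at E9.5 to 384 and 521 at E11.5 and the other from 385 and 592 to 432 and 380.3.

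The genes whose log2 signal followed each member most closely over the 12 arrays are given as a description, by Pearson's r. The arrays fall into 2 regions and share them, so r over all 12 is large for any pair of genes that differ by region. For that reason r within the 6 trunk and the 6 head arrays is given beside it. In head, Uncx, Hoxd9, Hoxb4 and Arg1 were above the median on 0 of 6 arrays and Pax1 on 1. Their r within head is taken from signals mostly under the median and does not show shared expression. For Pax1 the closest were Ntn1, which encodes the guidance protein netrin, at 0.978 (0.873 within trunk, 0.795 within head), the posterior Hox gene Hoxd9 at 0.975 (0.950 and 0.712), and Twist1, a mesenchymal transcription factor, at 0.972 (0.830 and 0.784). For Uncx they were the proneural gene Neurog2 at 0.947 (0.878 and 0.910), Ntn1 at 0.893 (0.153 and 0.808) and Ing1 at 0.881 (0.504 and 0.630). For Foxc2 they were Skap2 at 0.955 (0.914 and 0.553), the arginase gene Arg1 at 0.926 (0.853 and 0.804) and Hoxb4 at 0.911 (0.789 and 0.452).

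The closest genes to Foxc1 were Zic1 at 0.899 (-0.592 within trunk, 0.949 within head), Foxd1 at 0.896 (0.445 and 0.730) and Sox9 at 0.891 (0.246 and 0.853), and Foxc1 with Foxc2 had 0.872 (0.588 and 0.929). With Tbx18, Foxc1 had 0.190 over all 12 arrays but 0.936 within trunk and 0.914 within head. Tbx18 was below the median on every trunk array, so its r within trunk does not show shared expression. Pax1 with Foxc2 had 0.898 over 12 arrays, 0.881 within trunk and -0.032 within head. Sox9 was closest to Nacc2 at 0.916 (0.949 and 0.884), Slc31a1 at 0.907 (0.562 and 0.929) and Dnm2 at 0.892 (0.397 and 0.908). Pax9 was closest to Ankhd1 at 0.927, Gle1 at 0.867 and Nacc2 at 0.860, and Tbx18 to Bcl2l11 at 0.928, Ube2k at 0.917 and Tor1aip1 at 0.894. None of those 6 genes was called between the regions over the mean of the stages, with adjusted p of 0.118 to 0.858.

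Genes that work beside these factors were read from fixed lists, and most of the sclerotome and cartilage list could not be followed. Of its 18 genes 16 are on the array and 7 were tested. Nkx3-2, the homeobox gene that Pax1 and Pax9 switch on in sclerotome, was above the median on none of the 12 arrays, with signals of 3.72 to 21.6, and the cartilage matrix genes Acan, Matn1, Matn3, Matn4, Comp, Col11a2, Chad and Snorc were likewise above it on none. Over the mean of the stages 3.61% of all genes were called lower in head and 6.85% higher. Of this list 1 of 7 was lower in head and 0 higher, with a median of -0.21. That gene was Sox6 (-0.59, adjusted p = 0.0111), a partner of Sox9 in cartilage, while Sox5, its close relative, had -0.73 (0.0590).

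Several cartilage matrix genes moved with stage in trunk. From E9.5 to E11.5 there 4 of 7 rose and 1 fell, where 8.73% of all genes rose and 4.71% fell, and the median over the list was 1.28 and over all genes -0.014. The neural, myogenic and epithelial lists given beside Foxc2 moved over the same days, and their part was not tested. The collagen genes Col2a1 (1.56, adjusted p = 0.0107), Col9a1 (1.28, 0.00716) and Col11a1 (2.30, 0.00431) rose, and so did Col9a3 (5.03, 0.0208), though its signal ran from 3.27 to 129.8 and passed the median on only 2 trunk arrays. Hapln1, which encodes a link protein of the matrix, fell (-2.38, 0.000443). Over the same days the tested Sox9 probe set gave -0.24 and the other 1.03. In head 0 of 7 rose and 1 fell, where 2.75% of all genes rose and 2.03% fell. The gene that fell was again Hapln1 (-3.68, limma adjusted p = 5.77e-05). At E11.5 Sox5 (-1.75, 0.0402) and Col11a1 (-1.85, 0.0490) were lower in head than in trunk.

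Of the hedgehog list, the pathway that induces Pax1, 10 genes were tested and 1 was higher and 3 lower in head, with a median of -0.093. Among all genes 6.85% were called higher in head and 3.61% lower in that comparison, the mean of the stages. The lower genes of the list were the co-receptors Boc (-1.61, limma adjusted p = 0.000119), Gas1 (-0.54, 0.00584) and Cdon (-1.79, 0.0100). Cdon was above the median on no head array and on 4 of 6 in trunk. Hhip, a target and inhibitor of the pathway, was higher in head (0.65, 0.0304). The direct targets Ptch1 (0.30, 0.0715) and Gli1 (0.22, 0.496) were not called between regions. In trunk from E9.5 to E11.5 2 of 10 fell and 0 rose, where 4.71% of all genes fell and 8.73% rose. The 2 that fell were Ptch1 (-0.93, limma adjusted p = 0.00352) and Hhip (-1.38, 0.00975).

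Somite genes went both ways between regions. Of the segmentation and polarity list 11 of the 17 genes on the array were tested, 2 higher and 4 lower in head, with a median of -0.14. Over the mean of the stages 6.85% of all genes were called higher in head and 3.61% lower. Meox1 (-2.97, adjusted p = 1.29e-06), Meox2 (-2.08, 9.08e-07) and Tcf15 (-3.29, 3.81e-06), transcription factors of the forming somite, were lower in head, and so was the Notch ligand Dll3 (-0.82, 0.0105). The signal of Meox1 was 435 to 2465 in trunk and 70.9 to 251 in head, and that of Tcf15 305 to 1117 against 47.0 to 103, with Tcf15 above the median on no head array. Ripply3 (0.89, 0.0244) and Efnb2 (0.57, 0.00166) were higher in head. Ripply3 was above the median on 3 head and 0 trunk arrays, so it entered the test through head arrays alone. In trunk from E9.5 to E11.5 Meox1 fell (-1.96, 0.00224) and Efnb2 rose (0.54, 0.0427), and in head Meox1 (1.38, 0.0321) and Meox2 (1.68, 0.000972) rose while Dll3 (-1.72, 0.00735) and Efnb2 (-0.68, 0.0298) fell.

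**Figure D4:**
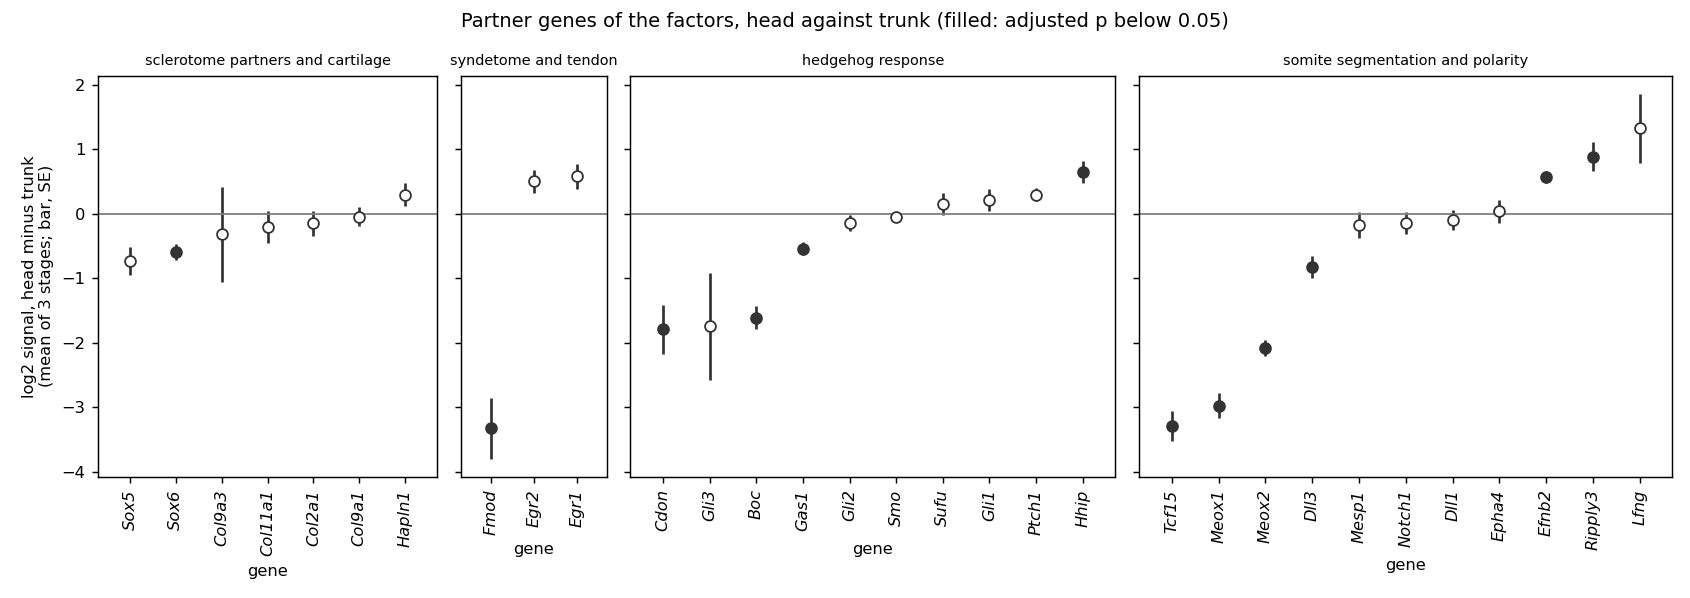
Log2 signal, head minus trunk over the mean of 3 stages, for the tested genes of 4 lists (sclerotome partners and cartilage, syndetome and tendon, hedgehog response, somite segmentation and polarity); bars are SE and filled points have an adjusted p below 0.05. Tcf15, Meox1, Meox2, Fmod, Boc and Cdon lie below -1.6, and Hhip, Efnb2 and Ripply3 are the filled points above 0.

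Lists for neighbouring tissues stand beside these results, read over the mean of the stages, where 3.61% of all genes were called lower in head and 6.85% higher. Of the tendon list 3 of 9 genes on the array were tested and 1 was lower in head, Fmod (-3.33, adjusted p = 0.000642), a matrix proteoglycan above the median on 1 head and 6 trunk arrays, while the tendon factor Scx was above it on none. Of the dermomyotome list 3 of 7 were lower in head and 0 higher. The lower ones were Dmrt2, Sim1 and Pax3. Dmrt2 and Sim1 were above the median on 0 head and 6 trunk arrays, so they entered the test through trunk arrays alone. Of the intermediate mesoderm and epicardium list 1 gene was tested, the retinoic acid enzyme gene Aldh1a2 (-3.40, 0.000407), while Osr1, Lhx1, Pax8 and Upk3b were above the median on 0 arrays and Wt1 on 1, so the defining markers of those tissues were near the floor. No gene of the notochord and floor plate list was tested, and Shh was above the median on 0 arrays.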

How the data were processed

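RNA of sorted YFP+ cells was measured on 12 Affymetrix mouse arrays. The deposited values are probe set signals with intensity as their unit, on a linear scale, made by the authors with MAS5 and Affymetrix Expression Console per the submitters' processing notes, which give no versions; no source used here tells if another normalization followed. The table holds 22690 probe sets, 64 of them controls, which were dropped; 20380 stood for 1 gene by the platform annotation, 691 for several and 1555 for none. Symbols were matched through Entrez identifiers for 20351, and none changed. A probe set was kept if at least 2 of 12 arrays lay above their array's median, and each gene was read from its brightest probe set, which left 7721 genes. Log2 signal was fitted with limma 3.58.1 in R 4.3.3, 1 mean for each group, variance moderated along intensity (residual degrees of freedom 6, prior 5.87) and two-sided p-values adjusted by Benjamini-Hochberg across the genes kept; 13 comparisons were made and an adjusted p under 0.05 was called. A test on simulated arrays was run first. Folds with dimmer arrays under the median use that median for them, and precision is limited by how few arrays there are.

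The 7 members and the lists were chosen with earlier results of these data known. Named genes are the members, the 3 genes most like each, up to 3 of smallest p in each list for the comparison described, and Myf5, Myod1 and Myog; other list genes were named after their values were seen. No label tells if replicate numbers pair the samples. Alternatives covered normalization, an offset, a floor, filters, the choice of probe set, the trend, a replicate block and each array left out.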

Additional observations from a re-analysis of the deposited data

How the results depend on the processing

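Of 13 member differences called, 5 kept their call in every alternative: Pax1, Uncx, Foxc1 and Foxc2 over the mean of the stages and Foxc2 at E9.5. Over that mean, 4 or 5 members were called under every setting. With all 12 arrays kept, the settings called 599 to 846 genes over that mean, and the main fit 808. With signals raised to the array median 1 member was called at E11.5, Uncx, where 184 genes were called. There Pax1 (-1.40, adjusted p = 0.0922) and Foxc2 (-1.61, 0.0502) lost their calls. In that setting 1 member, again Uncx, was called from E9.5 to E10.5 in trunk, where 437 genes were called. All Uncx head signals are set to the median there, so its spread is narrowed by the floor itself. Without an intensity trend 1 was called at E10.5 and 1 at E11.5, where 192 and 116 genes were called. Without both E10.5 arrays of low Xist 0 were called at E10.5, and the calls of Sox9 over the mean (adjusted p = 0.136) and of Uncx (0.0590) and Foxc2 (0.0704) at E11.5 were lost. With arrays left out in turn the count ran from 1 to 3 at E9.5, 1 to 3 at E10.5 and 0 to 4 at E11.5 between regions, and from 0 to 2 in head and 0 to 2 in trunk for E9.5 to E11.5. With the other probe sets, an alternative added after seeing the data, 2 were called from E9.5 to E11.5 in trunk, where Sox9 turned from -0.24 to 1.03. The Sox9 call over the mean was also lost without a filter (adjusted p = 0.0554), without the trend (0.0722) and at the array-median floor (0.0626). Among the values that gained a call was Sox9 at E11.5 with the mean of its probe sets (-1.24, limma adjusted p = 0.0128). Tbx18 from E9.5 to E11.5 in trunk gained one without the trend (-1.34, 0.0288), though at the array-median floor it had 0.0038 (0.998). Foxc1 at E11.5 gained one without both E10.5 arrays of low Xist (-1.56). Foxc2 lost its call from E9.5 to E11.5 in trunk without the trend (0.0523).

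The replicate block was fitted beside the main test, though no label tells if the replicate numbers pair samples. Of 15 correlations between same-numbered deviations, from -0.30 to 0.17, 2 were over 0.1. Head and trunk of one stage had 0.0055 at E9.5, -0.00083 at E10.5 and -0.096 at E11.5. Whether same-numbered head and trunk arrays share embryos was not tested. With the replicate block 5 members were again called over the mean, and Uncx at E10.5 passed (-3.63, adjusted p = 0.0476). The causes of these shifts were not tested, beyond fewer arrays where arrays were left out.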

Other observations

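The families of the factors were read beyond the members. Of 10 tested paralogs, limma called 1 higher and 3 lower in head across the stage mean, where 6.85% and 3.61% of all genes were called. The list's median was -0.079. Tbx1, a T-box gene of pharyngeal mesoderm, was higher in head (2.66), at 587 to 1064 against 66.1 to 207 in trunk. The forkhead gene Foxd1 was lower in head (-1.27, adjusted p = 0.000734), at 387 to 1117 against 1250 to 1938 without overlap, and so were Pax3 (-1.46) and Pax6 (-1.22), with Pax6 above the median on 0 head and 2 trunk arrays. From E9.5 to E11.5 in trunk 4 paralogs rose, all T-box genes (Tbx1, Tbx2, Tbx3 and Tbx15), where 8.73% of all genes rose.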
